A study of Mus musculus with 4 samples.

Results

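Coinhibitory receptors and checkpoint ligands are the surface molecules that restrain T cells. They were followed here as 10 genes given by symbol, namely Ctla4, Pdcd1, Cd274, Havcr2, Lag3, Tigit, Cd96, Btla, Cd160 and Cd200. All 10 were found among the 24421 genes of the deposited counts, and all 10 passed the filter on low counts. The libraries came from regulatory T cells (Tregs) sorted from omental tumors and from spleen, with 2 libraries for each tissue, from mouse 2 and mouse 3. Each host mouse carried the CD45.1 allele and EG7.1.15 tumor cells in its peritoneal cavity, and had been joined by parabiosis to a tumor-free partner without CD45.1 for 14 days. The sorted cells were the partner's, taken as live CD45.1-, CD45.2+, B220-, CD4+, CD25+ cells with green fluorescence from the Foxp3 reporter of the B6 Foxp3-DTR/GFP strain, in omental tumor and spleen alike. The reporter places green fluorescent protein and a diphtheria toxin receptor under the control of Foxp3. The time point of both tissues is labelled day 14 after tumor injection.

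Most of these molecules act at the contact between a T cell and another cell. CTLA-4 competes with CD28 for the B7 ligands CD80 and CD86, and in Tregs it is one of the main means of suppression. PD-1, encoded by Pdcd1, binds PD-L1, encoded by Cd274, and dampens signals from the antigen receptor and CD28. TIGIT and CD96 share the ligand PVR with the activating receptor CD226, BTLA and CD160 bind the TNF receptor family member HVEM, and the ligand CD200 acts on CD200 receptors of myeloid cells. In Tregs several of these receptors mark activated cells that have left the lymphoid organs.

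The gene totals were 6660230 and 3764508 counts in omental tumor (mouse 2, mouse 3) and 9989005 and 13598631 in spleen, so scarce transcripts carried more counting error in omental tumor. Levels are given as CPM, library-scaled counts whose effective library size was set by TMM factors. Foxp3, the lineage factor of Tregs, stood at 82.8 ± 2.07 CPM in omental tumor against 129 ± 22.3 CPM in spleen (SD, n = 2 libraries each). Cd4 stood at 376 and 114 CPM in omental tumor, against 568 and 1008 CPM in spleen. The Treg identity genes summed to 4324 and 5839 CPM in omental tumor, against 3856 and 5913 CPM in spleen. Of these 10 genes 8 were negative and 2 positive (median log2 fold change -0.64, 0 called). The most abundant, Tnfrsf4, held 1258 and 2931 CPM of the sums in omental tumor, against 531 and 1118 CPM in spleen. All 16 T lineage genes tested were on the negative side (median log2 fold change -1.03, 0 called), while 53.6% of all genes tested were positive. Markers of other cells were uneven, and of those tested 4 of 8 neutrophil, 3 of 15 macrophage and monocyte and 1 of 7 fibroblast and mesothelium genes were called higher in omental tumor. Of all genes tested 1.09% were called higher. With mouse as a replicate block 0 neutrophil, 3 macrophage and monocyte and 0 fibroblast and mesothelium genes were called. In that fit 1 NK cell gene and 1 endothelium gene were called higher too. The summed neutrophil genes reached 157 and 1459 CPM in omental tumor, against 102 and 71.4 CPM in spleen. Their most abundant members, S100a9 and S100a8, were at 475 and 412 CPM in omental tumor of mouse 3, against under 10 CPM in the other 3 libraries. The macrophage and monocyte genes summed to 562 and 956 CPM in omental tumor, against 262 and 493 CPM in spleen. Lyz2 held 250 and 297 CPM of this in omental tumor, against 6.85 and 61.8 CPM in spleen. That list was mixed, with 7 of the 15 genes tested positive and 8 negative (median log2 fold change -0.34). Csf1r stood at 38.7 and 14.4 CPM in omental tumor, against 69.9 and 110 CPM in spleen. Smaller sums, omental tumor against spleen, were 220 and 186 against 122 and 135 CPM for dendritic cells, 211 and 81.8 against 62.1 and 80.8 for fibroblasts and mesothelium, 130 and 85.3 against 228 and 259 for endothelium, 114 and 40.8 against 71.4 and 59.4 for B cells, and 65.1 and 36.2 against 55.3 and 61.9 for CD8 T cells. Of the endothelium sums, Pecam1, also an inhibitory receptor gene, held 80.1 and 31.1 CPM in omental tumor, against 208 and 255 in spleen. Of the 7 endothelium genes tested 6 were positive (median log2 fold change 1.75, 0 called). Thy1, also a T lineage gene, held 23.1 and 63.3 of the fibroblast and mesothelium CPM in omental tumor, against 41.7 and 72.6 in spleen. Col3a1 was at 91.2 and 2.03 CPM in omental tumor, against 2.64 and 1.83 CPM in spleen. The neutrophil gene Elane and the NK cell genes Klra4 and Klra8 had 0 counts in every library. In bulk libraries, fewer cells of a type and less RNA per cell cannot be told apart.

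The panel split into genes with higher and genes with lower levels in omental tumor, but none of it passed the test. By edgeR's quasi-likelihood test with Benjamini-Hochberg adjustment over 16322 genes, 0 of the 10 were called at adjusted p 0.05, where 1.32% of all genes tested were called (1.09% higher and 0.227% lower). With mouse as a replicate block 0 of the 10 were called as well, against 1.89% of all genes (0.41% lower). DESeq2 and limma-voom also called 0 of the 10. In the edgeR test by tissue alone Btla and Cd160 passed at an unadjusted p under 0.05, both lower in omental tumor. That is 2 of 10, against 9.01% of all genes (4.85% lower and 4.15% higher). At that p DESeq2 passed Cd274 and Cd96 as well, and limma-voom Cd200 and Cd96. Upper-quartile factors passed Btla, Cd274, Havcr2 and Pdcd1, and a minimum count of 50 passed Btla and Cd274. The share of all genes was not taken for these fits. Both omental libraries lay above both spleen libraries for Ctla4, Pdcd1, Cd274 and Havcr2, and below them for Cd96, Cd200, Btla and Cd160, so 8 of 10 genes had tissues that did not overlap, against 41.8% of all genes tested (16.4% above and 25.4% below). Lag3 and Tigit overlapped. Log2 fold changes were positive for 6 of the 10, against 53.6% of all genes tested, and their median was 0.64, against 0.11. The members were chosen with earlier results of these data known, so no comparison with these shares is a test of the panel. On simulated libraries of this size with 15243 genes the test called 0% of genes changed 4-fold, 22% of those changed 8-fold and 66.7% of those changed 16-fold, so a miss does not show equal levels.

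**Figure D1:**
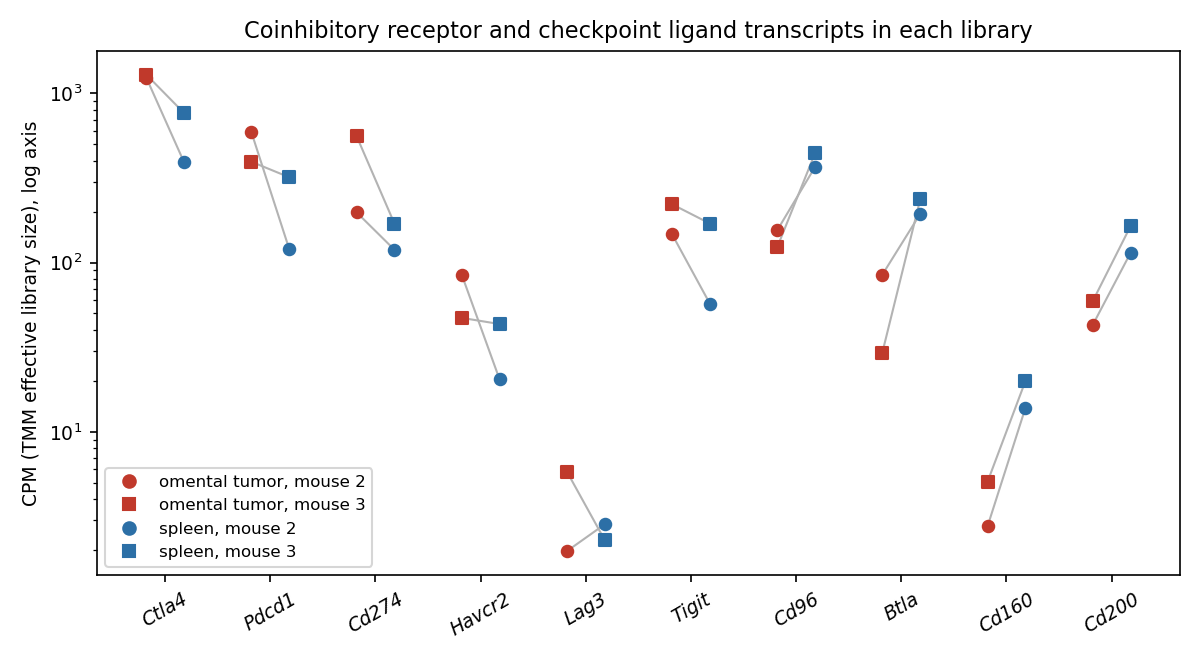
CPM of the 10 genes in each library on a log axis, with omental tumor (red) left of spleen (blue), circles for mouse 2, squares for mouse 3 and a grey line joining the tissues of 1 mouse. Ctla4, Pdcd1, Cd274 and Havcr2 have both omental points above both spleen points, Cd96, Btla, Cd160 and Cd200 have them below, and Lag3 and Tigit overlap.

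Promoters are shown for the most abundant pair with higher levels in omental tumor, Ctla4 and Pdcd1, and for 3 genes with lower levels, Btla, Cd160 and Cd96. The sequences are from RefSeq on GRCm38.p6, 5′ to 3′ on the gene's strand, with 250 bases before and 50 after the start. Capitals mark TGTGGT, the core bound by RUNX factors, on either strand (ACCACA).
Ctla4 (chr1:60908775-60909074, plus strand): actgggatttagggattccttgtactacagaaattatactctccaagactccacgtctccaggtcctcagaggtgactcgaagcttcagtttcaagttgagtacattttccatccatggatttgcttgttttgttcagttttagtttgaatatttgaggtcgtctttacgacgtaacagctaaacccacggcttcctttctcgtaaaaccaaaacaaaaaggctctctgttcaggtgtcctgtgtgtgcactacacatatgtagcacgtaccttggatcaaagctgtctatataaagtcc
Pdcd1 (chr1:94052504-94052803, minus strand): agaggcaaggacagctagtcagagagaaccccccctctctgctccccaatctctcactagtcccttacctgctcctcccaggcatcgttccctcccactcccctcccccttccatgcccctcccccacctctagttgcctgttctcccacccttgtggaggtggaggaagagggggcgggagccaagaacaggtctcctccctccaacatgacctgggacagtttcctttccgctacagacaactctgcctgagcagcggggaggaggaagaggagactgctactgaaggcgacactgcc
Btla (chr16:45224087-45224386, plus strand): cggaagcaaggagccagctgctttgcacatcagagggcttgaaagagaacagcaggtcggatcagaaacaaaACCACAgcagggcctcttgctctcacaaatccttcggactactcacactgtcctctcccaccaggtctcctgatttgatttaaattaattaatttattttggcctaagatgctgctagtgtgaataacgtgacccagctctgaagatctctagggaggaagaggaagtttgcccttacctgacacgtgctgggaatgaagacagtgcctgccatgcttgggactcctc
Cd160 (chr3:96829302-96829601, minus strand): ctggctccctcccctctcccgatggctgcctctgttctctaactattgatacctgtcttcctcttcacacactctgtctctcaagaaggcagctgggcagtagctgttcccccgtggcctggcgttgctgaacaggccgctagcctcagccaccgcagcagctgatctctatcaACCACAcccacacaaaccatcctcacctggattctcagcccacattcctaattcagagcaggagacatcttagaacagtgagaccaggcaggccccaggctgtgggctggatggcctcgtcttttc
Cd96 (chr16:46120199-46120498, minus strand): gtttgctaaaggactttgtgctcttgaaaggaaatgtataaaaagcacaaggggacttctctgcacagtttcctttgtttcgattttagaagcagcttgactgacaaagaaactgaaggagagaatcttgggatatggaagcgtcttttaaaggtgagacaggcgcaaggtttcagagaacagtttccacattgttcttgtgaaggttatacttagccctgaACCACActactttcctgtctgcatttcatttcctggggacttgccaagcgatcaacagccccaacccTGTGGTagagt
The table held 10 promoters for 9 of the 10 genes, with 2 starts for Cd160. TGTGGT was found 1 time in Btla, 2 times in Cd96, 1 time at each start of Cd160 and 1 time in Havcr2 and in Tigit, and was not in the windows of Ctla4, Pdcd1, Cd274 or Cd200. The genes with and without it thus include both higher and lower levels in omental tumor, and it occurs in 16.8% of all 32851 promoters of this length. Further motifs searched on both strands were AGGAAG of ETS factors (in 7 of the 10 promoters, 35.4% of all), GGAAA, the NFAT core (6 of 10, 61.3%), GGGCGG of SP and KLF factors (4 of 10, 35.7%), TTCNNNGAA of STAT factors (2 of 10, 8.30%), TGANTCA of AP-1 (1 of 10, 7.81%) and TTCAAAG of TCF-1 and LEF-1 (1 of 10, 5.14%). GTAAACA of forkhead factors (3.65% of all) was in 0 of the 10, as was the IRF motif (3.44% of all). AGGAAG and GGAAA share the letters GGAA, but no single GGAA can belong to both. A match is a string of letters and says nothing of binding.

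Ctla4 was the most abundant transcript of the panel. It stood at 1239 and 1290 CPM in the omental libraries of mouse 2 and mouse 3, against 391 and 764 CPM in their spleen libraries. The omental libraries lay close together and above both spleen libraries, which differed between the mice by 1.96 times. The log2 fold change, omental tumor over spleen, was 1.13 (SE 0.899, edgeR adjusted p = 0.771), or 3.17-fold in mouse 2 and 1.69-fold in mouse 3. Pdcd1, the PD-1 gene, had 589 and 394 CPM in omental tumor against 120 and 319 CPM in spleen. Its omental values were above its spleen values in both mice, by 4.92-fold in mouse 2 and only 1.24-fold in mouse 3, and the spleen library of mouse 3 came near the omental library of the same mouse. The fit gave 1.17 (SE 0.850, edgeR adjusted p = 0.739). Leaving out the spleen library of mouse 2, the log2 fold change was 0.67 for Ctla4 and 0.57 for Pdcd1, and without that of mouse 3 it was 1.96 and 2.24.

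Cd274, which encodes the PD-1 ligand PD-L1, had 198 and 559 CPM in omental tumor against 119 and 170 CPM in spleen. Here the mice went the other way round, with 3.29-fold in mouse 3 and 1.67-fold in mouse 2. The log2 fold change was 1.39 (SE 0.840, edgeR adjusted p = 0.652), and 0.37 without the omental library of mouse 3. PD-L1 is also made by myeloid cells. The omental library with the highest Cd274 had the highest sums of the neutrophil list and of the macrophage and monocyte list, at 1459 and 956 CPM. The latter list was mixed in direction. The part of other cells in the level of Cd274 was not tested. In GENCODE M21 an exon of Cd274 also shares bases with AC119228.1.

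Havcr2 encodes TIM-3, a receptor of terminally activated T cells and of myeloid cells. It stood at 84.8 and 47.1 CPM in omental tumor, against 20.4 and 43.3 CPM in spleen. The omental library of mouse 3 lay just above the spleen library of the same mouse (1.09-fold), whereas the libraries of mouse 2 differed 4.17-fold. The log2 fold change was 1.05 (SE 0.761, edgeR adjusted p = 0.737), with leave-one-out values from 0.55, without the spleen library of mouse 2, to 1.87, without that of mouse 3. Lag3, whose product binds MHC class II, was near the floor of these libraries, with 15 and 23 counts in omental tumor against 29 and 25 counts in spleen. That is 1.97 and 5.82 CPM in omental tumor, with exact Poisson 95% intervals of 1.10 to 3.25 and 3.69 to 8.74, against 2.84 and 2.29 CPM in spleen, with intervals of 1.90 to 4.08 and 1.48 to 3.38. These intervals cover counting error only. The tissues overlapped, the mice differed in direction, and the log2 fold change of 0.58 (SE 1.22, edgeR adjusted p = 0.906) became -0.46 without the omental library of mouse 3.

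Tigit and Cd96, receptors of the same ligand, stood on opposite sides. Tigit, the inhibitory partner that Tregs express widely, had 147 and 221 CPM in omental tumor against 57.1 and 170 CPM in spleen, with a log2 fold change of 0.70 (SE 0.8, edgeR adjusted p = 0.827). It was higher in omental tumor in both mice, by 2.58-fold and 1.30-fold, but the spleen library of mouse 3 lay above the omental library of mouse 2. Leaving out the spleen library of mouse 2, the log2 fold change was 0.06, and without that of mouse 3 it was 2.01. Cd96 had 155 and 123 CPM in omental tumor against 367 and 443 CPM in spleen. Its libraries agreed within each tissue more closely than those of Tigit, and the spleen libraries were above by 2.37-fold in mouse 2 and 3.59-fold in mouse 3. The log2 fold change was -1.54 (SE 0.846, edgeR adjusted p = 0.6), with leave-one-out values from -1.73 to -1.17.

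Btla and Cd160, which bind HVEM, were the members with the smallest p-values. Btla stood at 84.8 and 29.4 CPM in omental tumor, against 194 and 236 CPM in spleen. Both omental libraries were lower, and that of mouse 3 was the lowest. The log2 fold change was -1.91 (SE 0.820, unadjusted p = 0.0199, adjusted p = 0.389 in edgeR's quasi-likelihood test), with leave-one-out values from -2.88 to -1.43. Cd160, best known from NK cells and CD8 T cells, was scarce at 2.76 and 5.06 CPM in omental tumor, from 21 and 20 counts, and stood at 13.8 and 19.9 CPM in spleen, from 141 and 217 counts. The exact Poisson 95% intervals of 1.71 to 4.21 and 3.09 to 7.82 CPM in omental tumor lay below those of 11.6 to 16.3 and 17.3 to 22.7 CPM in spleen. As for Lag3, the intervals cover counting error only and not the spread between mice. The log2 fold change of Cd160 was -2.12 (SE 0.947, unadjusted p = 0.0253, adjusted p = 0.441 in edgeR's quasi-likelihood test), with leave-one-out values from -2.69 to -1.52. In GENCODE M21 an exon of Cd160 shares bases with Pdzk1 on the opposite strand. Pdzk1 had 10.8 and 1.27 CPM in omental tumor against 7.54 and 6.59 CPM in spleen, and reads over the shared bases cannot be told apart without strand. Whether such reads entered the count of Cd160 or the summary entry for ambiguous reads was not tested. The summed NK cell genes stood at 44.0 and 181 CPM in omental tumor, against 25.9 and 25.3 CPM in spleen, the opposite side from Cd160, and most of the 181 CPM was Tyrobp (161 CPM), which myeloid cells also express.

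Cd200 encodes a ligand that restrains myeloid cells through their CD200 receptors. It had 42.7 and 59.0 CPM in omental tumor against 114 and 164 CPM in spleen. The difference was of like size in the mice, with spleen above by 2.67-fold in mouse 2 and 2.78-fold in mouse 3. The log2 fold change was -1.45 (SE 0.792, edgeR adjusted p = 0.597), with leave-one-out values from -1.79 to -0.86. Cd200r1, its receptor gene, was near level between the tissues at 102 and 131 CPM in omental tumor against 77.6 and 132 CPM in spleen, and was named after its values were seen.

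**Figure D2:**
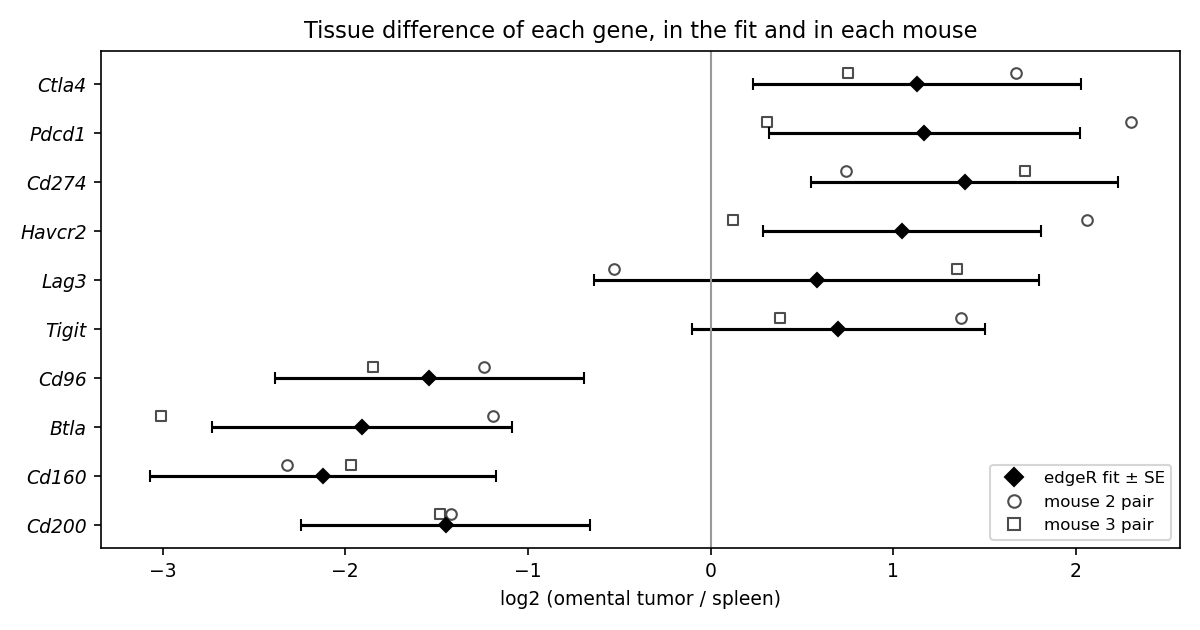
Log2 ratio of omental tumor to spleen for each gene. Black diamonds are the edgeR estimates with SE bars, open circles the mouse 2 pair and open squares the mouse 3 pair of libraries. The estimates of Cd96, Btla, Cd160 and Cd200 lie from -2.12 to -1.45 with both mice below 0, and Lag3 is the gene whose mice fall on opposite sides of 0.

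The choice of scaling shifted all levels together. Scaled by library gene totals alone, the median over all genes tested moved to 0.36, and the members ran from -1.84 for Cd160 to 1.65 for Cd274 on the log2 scale. Scaled by the summed T lineage genes, that median moved to 0.87, Ctla4 reached 2.02, Pdcd1 2.12, Cd274 2.18, Havcr2 1.98 and Tigit 1.62, while Cd96 was at -0.72, Cd200 at -0.63, Btla at -1.04 and Cd160 at -1.30. The 10 genes had the same signs under both scalings, and 0 were called. At an unadjusted p under 0.05, T lineage scaling passed Ctla4, Pdcd1, Cd274, Havcr2 and Tigit, all higher, and neither Btla nor Cd160. Gene totals passed Btla, Cd274 and Pdcd1. The share of all genes passing that threshold was taken for the main TMM fit alone (9.01%). Whether more members passed than genes at large under these 2 scalings was thus not tested.

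Ratios between genes of 1 library do not depend on the scaling, and they separated the tissues in several cases. They are ratios of CPM per kilobase of exon, with lengths from GENCODE M21. Ctla4 over Cd28, the inhibitory and the activating receptor for B7, was 8.11 and 10.2 in omental tumor against 2.83 and 3.54 in spleen, 2.87-fold higher in each mouse. Tigit over Cd226 was 22.5 and 30.5 in omental tumor against 3.50 and 6.54 in spleen, and Tigit over Cd96 was 2.26 and 4.26 in omental tumor against 0.370 and 0.912 in spleen. Cd96 over Cd226 differed little between the tissues of a mouse, at 9.93 and 7.18 in omental tumor against 9.45 and 7.17 in spleen.

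Pdcd1 over Btla was 12.2 and 23.6 in omental tumor against 1.09 and 2.38 in spleen, 11.3-fold higher in mouse 2 and 9.95-fold in mouse 3. Against Icos, a costimulatory receptor of effector Tregs, Ctla4 lay on the other side. Ctla4 over Icos was 1.87 and 1.54 in omental tumor against 2.30 and 2.08 in spleen, and Pdcd1 over Icos overlapped. Cd274 over Pdcd1lg2, the PD-L1 and PD-L2 genes, overlapped as well, as did Btla over Tnfrsf14. In all, 9 ratios were formed, chosen after the values were seen, and 4 lay above and 1 below in omental tumor without overlap. Pdcd1 itself lay above and Btla below without overlap, so their ratio had to separate the tissues. The denominators Cd96 and Cd226 also lay below without overlap. The ratios thus restate values of single genes, and the share of gene pairs in general that separate was not taken. With 2 libraries a tissue no exact permutation test of a single ratio can reach 0.05.

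**Figure D3:**
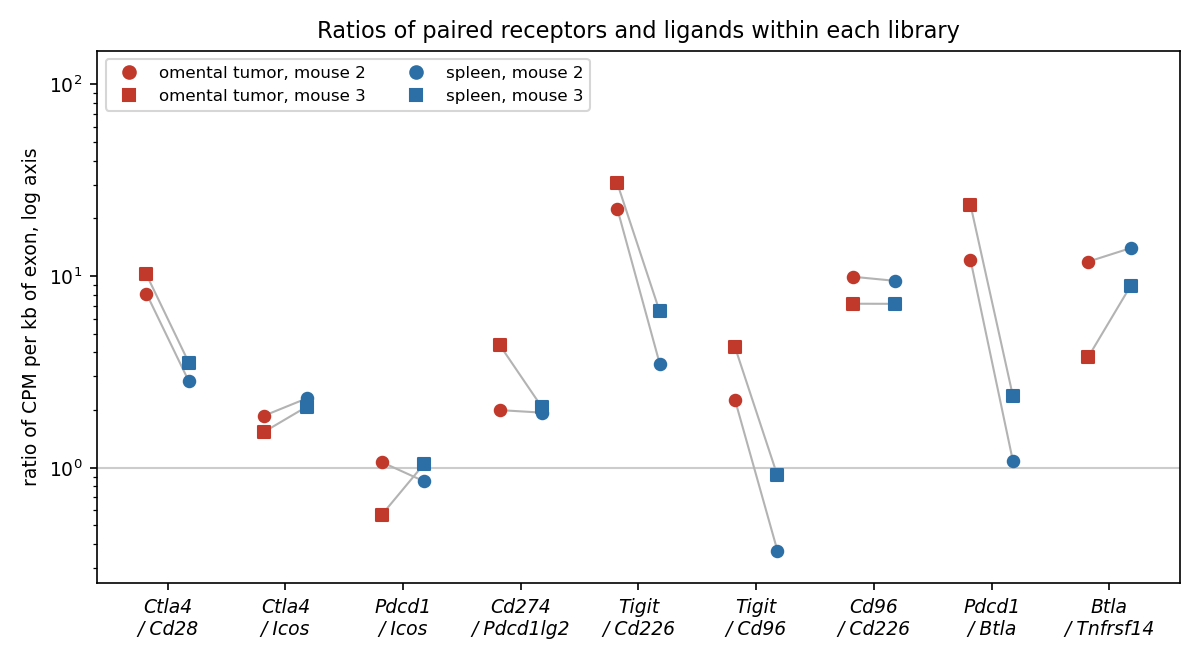
Ratio of CPM per kilobase of exon for 9 pairs of genes in each library on a log axis, with omental tumor (red) left of spleen (blue), circles for mouse 2 and squares for mouse 3. Ctla4 over Cd28, Tigit over Cd226, Tigit over Cd96 and Pdcd1 over Btla have both omental points above both spleen points, and the lines of Cd96 over Cd226 are almost flat.

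Per kilobase of exon, Ctla4 stood first in both tissues, at 543 ± 15.3 CPM per kb in omental tumor against 248 ± 113 in spleen (SD, n = 2). In omental tumor Pdcd1 (255 ± 71.2), Tigit (200 ± 56.4), Cd274 (105 ± 70.4) and Cd96 (63.7 ± 10.2) came next. In spleen the order after Ctla4 was Cd96 (185 ± 24.7), Tigit (124 ± 86.9), Pdcd1 (114 ± 72.8) and Btla (63.3 ± 8.71). The libraries of neighbours overlapped between Pdcd1 and Tigit and between Cd274 and Cd96 in omental tumor, and between each successive pair of the first 5 in spleen, so those places are not settled. Lag3 and Cd160 were last and had under 10 CPM per kb in each library. As a share of the summed panel, Ctla4 took 44.6% and 44.1% in omental tumor against 28.1% and 30.6% in spleen, Cd96 took 5.94% and 4.50% in omental tumor against 28.1% and 18.9% in spleen, and Btla took 2.09% and 0.688% in omental tumor against 9.54% and 6.49% in spleen.

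**Figure D4:**
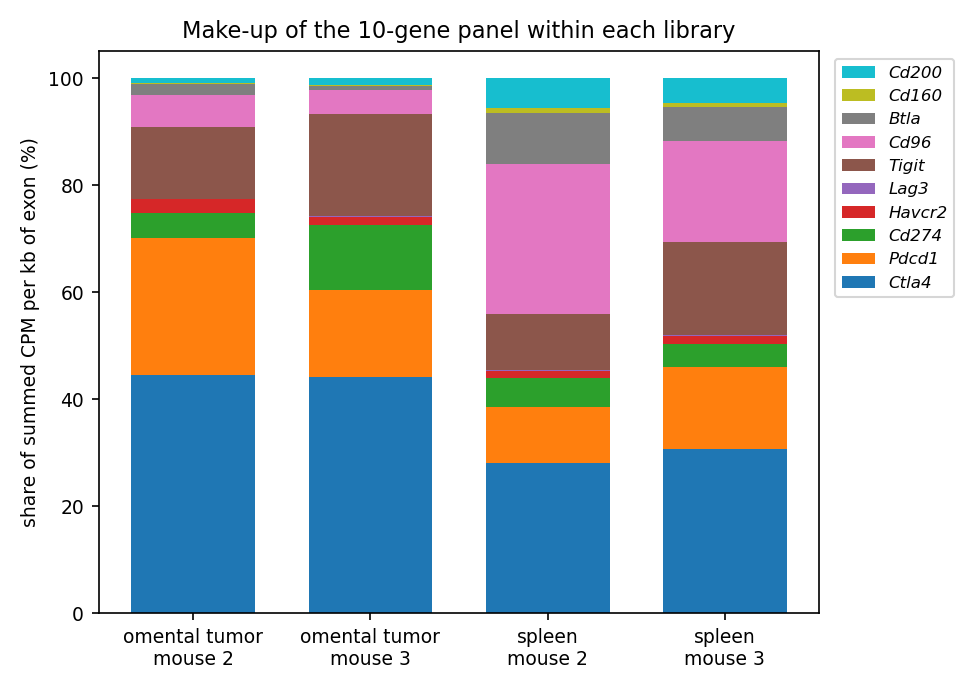
Share of each gene in the summed CPM per kilobase of exon of the 10 genes, in percent, for the omental tumor and then the spleen libraries. Ctla4 fills over 44% of both omental bars and under 31% of both spleen bars, and Cd96 and Btla are wider in spleen.

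Tigit, Btla, Cd200 and Cd96 lie on chromosome 16 within 2.47 Mb, from 43648867 to 46120251 in mm10 (GENCODE M21). The stretch is not of a single direction, since 19 of 29 tested genes in it had positive and 10 had negative log2 values, and the median was 0.59 over the 25 that are no members. Btla runs from 45224315 to 45257670, Cd200 from 45382135 to 45409053 and Cd96 from 46035657 to 46120251. Ctla4 (60887000 to 60915832) and Pdcd1 (94038305 to 94052553) lie on chromosome 1.

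Partners in the same pathways were measured beside the panel, in lists chosen with earlier results known. Over all genes tested the median was 0.11, and 4.85% were lower and 4.15% higher at an unadjusted p under 0.05. Among B7 and CD28 family partners edgeR called 0 of 8 tested genes (2 lower at an unadjusted p under 0.05), and 4 were positive and 4 negative (median 0.16). Icos stood at 1103 ± 181 CPM in omental tumor against 395 ± 205 CPM in spleen, and Cd28 at 367 ± 48.2 CPM in omental tumor against 465 ± 145 CPM in spleen. The B7 ligand gene Cd86 had 17.6 ± 7.65 CPM in omental tumor against 59.8 ± 8.33 CPM in spleen (log2 fold change -1.76, edgeR adjusted p = 0.430). The gene of the inhibitory ligand VISTA, listed as 4632428N05Rik, had 129 ± 69.7 CPM in omental tumor against 443 ± 155 CPM in spleen (-1.78, edgeR adjusted p = 0.506). Of 7 nectin and PVR partners tested edgeR called 0 (1 lower at an unadjusted p under 0.05, median 0.62). The activating receptor gene Cd226 had 36.7 ± 2.52 CPM in omental tumor against 113 ± 36.4 CPM in spleen (-1.62, edgeR adjusted p = 0.516). The ligand gene Pvr had 16.7 ± 9.36 CPM in omental tumor against 36.5 ± 10.8 CPM in spleen, and the nectin gene Pvrl4 was scarce in both, at 2.24 ± 1.49 against 0.836 ± 0.629 CPM.

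Of 12 ligands and partners of the remaining members edgeR called 0 (0 at an unadjusted p under 0.05, median 0.31). Tnfrsf14, which encodes HVEM, was scarce at 3.16 ± 0.192 CPM in omental tumor against 8.56 ± 3.81 CPM in spleen. The TIM-3 ligand genes Lgals9 and Hmgb1 were abundant, at 289 ± 88.1 and 1226 ± 500 CPM in omental tumor against 401 ± 138 and 985 ± 450 CPM in spleen. Lgals3, a ligand of LAG-3, had 89.4 ± 60.8 CPM in omental tumor against 51.4 ± 33.2 CPM in spleen. Bag6, which binds the tail of TIM-3, had 22.9 ± 9.79 CPM in omental tumor against 40.2 ± 3.58 CPM in spleen. No direction is drawn from these genes, whose log2 fold changes were all under 1.5 in size.

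Among 21 other inhibitory receptors 3 rose and 0 fell (median 0.48), where 1.09% of all genes tested were called higher and 0.227% lower. Cd300lf, a receptor of myeloid cells, rose with 11 and 257 CPM in omental tumor against 4.50 and 2.47 CPM in spleen (log2 fold change 5.26, edgeR adjusted p = 5.65e-06). Cd33, a sialic acid receptor of myeloid cells, rose with 5.38 and 90.1 CPM in omental tumor against 4.11 and 1.28 CPM in spleen (4.14, edgeR adjusted p = 0.000738). Fcgr2b, the inhibitory Fc receptor of B cells and myeloid cells, rose with 72.2 and 51.6 CPM in omental tumor against 7.24 and 4.48 CPM in spleen (3.40, edgeR adjusted p = 0.00644). For Cd300lf and Cd33 the omental library of mouse 3 was far the highest, as for neutrophil genes (157 and 1459 CPM summed in omental tumor), and the part of other cells was not tested. Without that library the log2 fold changes were 1.57 for Cd300lf and 0.91 for Cd33 (edgeR adjusted p = 0.936 for each), while Fcgr2b kept its call (3.53, edgeR adjusted p = 0.0103). Leaving out the spleen library of mouse 2, the edgeR adjusted p was 0.101 for Cd300lf, 0.183 for Cd33 and 0.474 for Fcgr2b, and without that of mouse 3 it was 0.0897, 0.210 and 0.503. With mouse as a replicate block Cd33 was not called (edgeR adjusted p = 0.118), nor was it in limma-voom (adjusted p = 0.115), and none of the 3 was called with gene totals, T lineage scaling or a minimum count of 50. The receptors best known from T cells did not pass, with Klrg1 at 685 ± 49.9 CPM in omental tumor against 429 ± 226 CPM in spleen and Cd5 at 248 ± 187 CPM in omental tumor against 643 ± 207 CPM in spleen.

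Signalling and trafficking genes lay mostly on the lower side, with 24 of 30 tested genes negative and a median of -1.08. Of them edgeR called 0, and 2 were higher and 5 lower at an unadjusted p under 0.05. Over all genes tested 53.6% were positive, the median was 0.11, and at that p 4.15% were higher and 4.85% lower. The median of the signalling list stood near the -1.03 of the T lineage list, which shares Lck with it. Dgka, the diacylglycerol kinase that damps antigen receptor signals, had 346 and 64.8 CPM in omental tumor against 1233 and 1433 CPM in spleen (log2 fold change -2.70, edgeR adjusted p = 0.168). The adaptor gene Lax1 had 42.1 and 16.2 CPM in omental tumor against 133 and 188 CPM in spleen (-2.46, edgeR adjusted p = 0.133). DESeq2 called both (adjusted p = 0.02 for Dgka and 0.0245 for Lax1), where it called 370 genes in all, and limma-voom called Dgka (adjusted p = 0.0053). Leaving out the omental library of mouse 2, Dgka was at -4.38 (edgeR adjusted p = 0.063) and Lax1 was called at -3.32 (edgeR adjusted p = 0.0395), and leaving out that of mouse 3 they were at -2.03 and -2.02. The adaptor gene Grb2 had 12.1 and 66.8 CPM in omental tumor against 9.59 and 11.7 CPM in spleen. Its log2 fold change of 1.88 (edgeR adjusted p = 0.384) was 0.09 without the omental library of mouse 3, and 2.63 with a call (edgeR adjusted p = 0.0365) without that of mouse 2. The kinase gene Lck had 569 ± 176 CPM in omental tumor against 1595 ± 537 CPM in spleen.

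**Figure D5:**
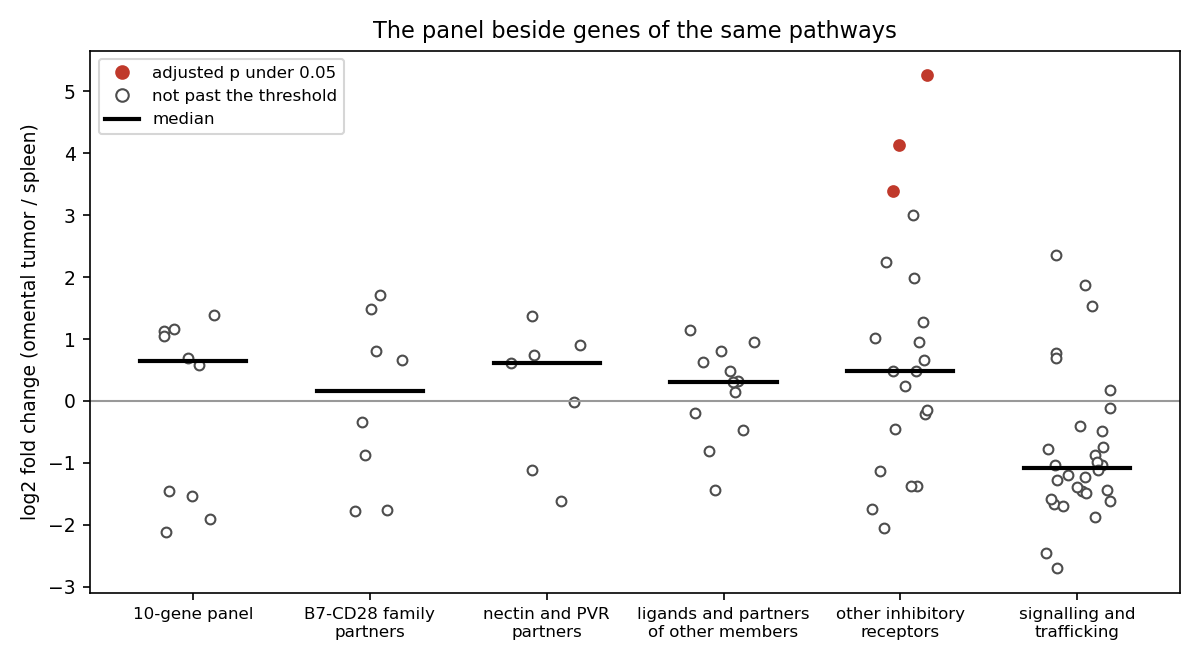
Log2 fold change, omental tumor over spleen, of each tested gene of the 10-gene panel and of 5 lists of partner genes. Filled points passed adjusted p 0.05 in edgeR, open points did not, and bars are medians. Filled points appear among the other inhibitory receptors alone, and the signalling and trafficking list has the lowest median, -1.08.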

How the data were processed

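The authors deposited raw counts of reads for each gene symbol in each library. The submitters' processing notes name HTSeq, SAMtools, TopHat2 and Trim Galore, and build mm10. The versions, the annotation and whether strand was used are each left unstated in those notes, and per the labels' protocols SMART-seq v4 and Nextera XT made the libraries, which mark no strand. The deposited counts end with 5 summary entries that name no gene and were left out. The share of entries in genes was 17.1% and 22.2% for omental tumor, against 24.9% and 46.0% for spleen (mouse 2, mouse 3). Entries not aligned uniquely made up 33.5% and 49.9% for omental tumor, against 30.2% and 28% for spleen. Entries in no gene made up 48.9% and 27.3% for omental tumor, against 44.2% and 24.8% for spleen.

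In R 4.3.3, edgeR 4.0.16 kept 16322 of 24421 genes with filterByExpr at a minimum count of 10. TMM factors were 1.15 and 1.05 for omental tumor, against 1.03 and 0.804 for spleen. The quasi-likelihood test (estimateDisp, glmQLFit, glmQLFTest, default settings, which in this version are the legacy form) compared omental tumor with spleen by tissue alone, with Benjamini-Hochberg adjustment. SE is the absolute log2 fold change over the root of F. The prior degrees of freedom were infinite, so neither SE nor p follows a gene's own spread. With 2 mice a tissue, p-values rest on the spread between these few libraries.

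Per the labels, a mouse number names the same host in omental tumor and spleen, so it pairs the libraries. Deviations from tissue means correlated at 0.168 between the tissues of a mouse. With 2 libraries a tissue both mice must give the same value, so it adds little. The model was checked on simulated data with 200 changed genes. DESeq2 1.42.0, limma 3.58.1 (voom), other scalings and filters, the block and leaving out each library were alternatives. The members and lists were chosen with earlier results of these data known. Named are the members, in each partner list the 3 smallest p-values and the 2 most abundant genes, the sort markers and in each marker list the 2 most abundant genes, of which the text gives those that touch a result. Of the listed symbols, 1 each of the B7, nectin and neutrophil lists and 4 of the T lineage list had no match. Exon lengths and coordinates are from GENCODE M21 (GRCm38, the assembly of mm10), which may differ from the annotation behind the counts.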

Additional observations from a re-analysis of the deposited data

How the results depend on the processing

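The count of called members was 0 under all 16 alternatives to the test of tissue alone and at adjusted p 0.01. The legacy form of glmQLFit, 1 of the 16, is the main fit itself. It could not differ, here or among the refits counted below. Over 159 refits of members, 158 kept direction and side of the threshold, and Lag3 turned, to -0.46 without the omental library of mouse 3. Its leave-one-out values ran from -0.46 to 1.17, and over all alternatives its highest value was 1.29, with T lineage scaling. The count over all genes was 215 (178 higher, 37 lower). It was 26 (24 higher, 2 lower) with library gene totals alone, 0 with T lineage scaling, 3 at a minimum count of 50 and 370 (246 higher, 124 lower) in DESeq2, and the cause was not tested. It was 201 (188 and 13) with upper-quartile factors and 308 with mouse as a replicate block, where no member was called. The non-legacy form of glmQLFit, added after seeing the data, called 233. Leaving out 1 library gave 44 to 606, namely 606 and 79 with the omental library of mouse 2 or mouse 3 left out, and 44 and 74 with the spleen library of mouse 2 or mouse 3 left out. The spread of a lone library was taken from the pair of the other tissue.

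Over 335 refits of 21 partner genes, 302 kept direction and side, 9 turned, 19 lost a call and 5 gained one. With upper-quartile factors Cd28 was at 0.18 and Lgals9 at 0.09, and with T lineage scaling they were at 0.52 and 0.37. Leaving out 1 library at a time, Cd28 ran from -0.69 to 0.25 and Lgals9 from -0.91 to 0.26, both turning when the spleen library of mouse 3 was left out. Lgals3 ran from -0.24 to 2.08 and Hmgb1 from -0.27 to 1.23, lowest with the omental library of mouse 3 left out, and Hmgb1 was also negative (-0.14) with the spleen library of mouse 2 left out. The cause was not tested. The low counts of Lag3 and Cd160 and the smaller omental libraries limit what their values can show.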
